A study of Mus musculus with 16 samples.

Results

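The 10 genes described here, Esrrb, Tfcp2l1, Prdm14, Tbx3, Zfp42, Nr0b1, Nr5a2, Dppa3, Dppa5a and Fbxo15, are transcription factors and markers of the naive pluripotent state of mouse cells. They were taken by name from the table of RNA counts and make up 10 of its 52636 gene IDs. The list was chosen with earlier results of these data known. All 10 passed the filter on low counts and were tested. The study asked how pluripotent mouse cells respond to the kinase ERK: cells of the line CRAFR26, of the type labelled RSC, were derived from embryonic stem cells and carry a c-RAF kinase construct that 4-hydroxytamoxifen (4OHT) switches on, which activates ERK downstream. RNA was sequenced in 16 libraries, 4 per group, each group holding 2 libraries from clone 4 and 2 from clone 8.

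The cells of all 4 groups were kept in N2B27 medium with 2 µM IWP2, an inhibitor of Wnt secretion, 1 µM PD0325901, a MEK inhibitor, and 1000 U/ml LIF. For 48 h before the experiment PD0325901 was replaced in every group by 250 nM PD173074, an FGF receptor inhibitor. Group 0h received no 4OHT. Groups 2h and 4h received 250 nM 4OHT for 2 h and 4 h, and group rev received 4OHT for 4 h and then a MEK inhibitor for 2 h, at a dose that the labels do not state. No group with a longer induction and no inhibitor was analysed here, so the inhibitor and the additional 2 h of culture at rev cannot be told apart. Clones 4 and 8 are each a single clone of the line, and the labels do not say whether the libraries of a clone and group came from separate cultures. The p-values therefore measure the spread between these libraries, which may be technical. In fits with clone as a covariate, that spread also takes in any difference between the clones in their response. In fits of a single clone, or with a mean for each clone and group, it rests on the libraries of the same clone and group.

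Naive pluripotency is the state of the preimplantation epiblast and of mouse embryonic stem cells, and it is held by a network of transcription factors that activate one another and themselves. LIF acts on the network through STAT3, for which Tfcp2l1 is a known target, and Wnt signalling acts on it through Tcf7l1, a repressor of Esrrb. ERK signalling is known to promote exit from the naive state, and MEK inhibitors are used in culture to hold it back. All groups here were RSC cells, and no group of naive embryonic stem cells was analysed for comparison. Whether the uninduced RSC cells were in the naive state was not tested. Their levels of the member genes are therefore those of RSC cells and need not be those of naive cells.

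Promoters are shown for 3 members whose counts behaved differently below: Tfcp2l1, which was lower at 4h, Nr0b1, which was higher at 4h, and Zfp42, which was called at 2h and not at 4h. RefSeq promoter entries on GRCm38.p6 matched 5 of the 10 members (Esrrb, Tfcp2l1, Zfp42, Nr0b1 and Nr5a2). The promoter set used here held no entry for Prdm14, Tbx3, Dppa3, Dppa5a or Fbxo15. The bases upstream of the RefSeq start are printed 5′ to 3′ on the gene's strand, with matches to the searched motifs in capitals. Positions are counted from the RefSeq start, which is the start given below for Tfcp2l1 and lies 29 bases upstream of it for Zfp42 and 11 bases downstream of it for Nr0b1. The Tfcp2l1 window is chr1:118627695-118627944 on the plus strand, the Nr0b1 window is chrX:86191525-86191763 on the plus strand, from which 11 bases covered by an annotated transcript were left out, and the Zfp42 window is chr8:43307010-43307259 on the minus strand.
Tfcp2l1: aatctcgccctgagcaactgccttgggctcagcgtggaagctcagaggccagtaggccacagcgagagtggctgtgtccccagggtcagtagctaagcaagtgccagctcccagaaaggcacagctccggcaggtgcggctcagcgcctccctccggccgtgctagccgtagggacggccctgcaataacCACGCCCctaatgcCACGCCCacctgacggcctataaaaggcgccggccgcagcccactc
Nr0b1: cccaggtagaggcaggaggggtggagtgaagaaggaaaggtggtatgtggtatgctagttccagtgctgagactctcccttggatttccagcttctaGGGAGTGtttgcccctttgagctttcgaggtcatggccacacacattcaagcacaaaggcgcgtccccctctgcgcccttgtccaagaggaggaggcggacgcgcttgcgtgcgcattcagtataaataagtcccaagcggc
Zfp42: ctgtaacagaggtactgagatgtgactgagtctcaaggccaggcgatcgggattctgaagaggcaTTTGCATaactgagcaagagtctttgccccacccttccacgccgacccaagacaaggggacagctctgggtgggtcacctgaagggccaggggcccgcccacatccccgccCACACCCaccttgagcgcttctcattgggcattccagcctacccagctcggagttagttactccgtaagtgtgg
The search covered both strands for the ETS letters CCGGAAG, the AP-1 letters TGANTCA, the ESRRB letters AAGGTCA, the KLF letters GGGNGTG, the EGR letters GCGNGGG, the TCF letters CTTTGAA and the OCT letters ATGCAAA; KLF and EGR matches can overlap. In the Tfcp2l1 window the capitals are 2 KLF matches on the opposite strand, at -60 to -54 and -46 to -40 from the start. The Nr0b1 window held 1 KLF match on the gene's strand, at -153 to -147. The Zfp42 window held 1 OCT match at -185 to -179 and 1 KLF match at -74 to -68, both on the opposite strand. In the windows not printed, Esrrb held 1 KLF match and Nr5a2 held none of the motifs. Among 32851 RefSeq promoters of this table, KLF letters were found in 26.1%, EGR letters in 20.3%, ETS letters in 6.91%, AP-1 letters in 6.75%, TCF letters in 4.46%, OCT letters in 4.12% and ESRRB letters in 4.08%. The G and C content was 65.2% with 16 CG dinucleotides in the Tfcp2l1 window, 56.1% with 10 in that of Nr0b1, and 58.4% with 9 in that of Zfp42. It was 43.2% with 2 in that of Nr5a2. The matches describe letters only.

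The genes lie on 8 chromosomes of GRCm38. Esrrb (ENSMUSG00000021255) spans 86361117 to 86521628 on chromosome 12, plus strand. Chromosome 1 carries Tfcp2l1 (ENSMUSG00000026380) at 118627945 to 118685168, plus strand, Prdm14 (ENSMUSG00000042414) at 13113457 to 13127163, minus strand, and Nr5a2 (ENSMUSG00000026398) at 136842571 to 136960448, minus strand. Tbx3 (ENSMUSG00000018604) spans 119670669 to 119684724 on chromosome 5, plus strand, and Zfp42 (ENSMUSG00000051176) spans 43295063 to 43306980 on chromosome 8, minus strand. Nr0b1 (ENSMUSG00000025056) spans 86191764 to 86195947 on chromosome X, plus strand, and Dppa3 (ENSMUSG00000046323) spans 122626410 to 122630272 on chromosome 6, plus strand. Dppa5a (ENSMUSG00000060461) spans 78367052 to 78368177 on chromosome 9, minus strand, and Fbxo15 (ENSMUSG00000034391) spans 84934782 to 84981473 on chromosome 18, plus strand. Of the exon length, 1.38% of Tfcp2l1 is shared with the small nuclear RNA Gm23497 on the same strand and 1.74% of Tbx3 with Tbx3os1 on the opposite strand; the other 8 share none with another annotated gene. Dppa3 and Dppa5a have processed copies or close relatives in the genome, so their counts could be divided between loci and are less certain.

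Total counts per library ran from 4313599 to 10444126. A set of 8 features, each above 1% of all counts, held 46.7% to 78.9% of a library, and 3 counts were worth 0.210 to 0.908 CPM (TMM-scaled). The lowest member value was 35 counts, for Prdm14 in a 4h library. The first principal component (51.0% of the variance) separated the clones, and along the third (8.57%) all 0h and 4h libraries were positive and all 2h and rev libraries negative. Groups 2h and rev were both collected 2 h after a compound was added, and the labels give no batch; what that component stands for was not tested. Pluripotent markers summed to 859 to 1395 CPM with none of the 5 at 0. Pou5f1 and Sox2 were not called between groups, but others of the 5 moved, and opposite moves can cancel in the sum. From 0h to 4h and rev, mean Nanog went from 440 to 288 and 557 CPM and mean Lin28a from 23.5 to 61.5 and 35.7 CPM. Mean Sall4 was 273, 263 and 291 CPM. Of 6 fibroblast feeder markers 2 to 5 were at 0 in a library and all summed to at most 2.60 CPM, 6 primitive endoderm markers to at most 9.99 CPM and 5 mesoderm markers to at most 9.65 CPM. Trophectoderm markers summed to 29.2 to 77.7 CPM and neural markers to 32.3 to 76.4 CPM. The 2-cell-like markers summed to 0.553 to 2.00 CPM in clone 4 and to 6.47 to 29.5 CPM in clone 8. The part of these other types in the results was not tested. In bulk RNA, fewer cells with a transcript and less of it per cell cannot be told apart.

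Before induction, levels per kilobase of exon differed widely among the members. At 0h Dppa5a, which encodes a small RNA-binding protein of pluripotent cells, stood highest at 355 ± 44.2 CPM per kb (SD, n = 4, as for the levels that follow). Zfp42 (Rex1), a zinc finger protein and reporter gene of the naive state, followed at 54.0 ± 8.41. Esrrb, an orphan nuclear receptor, was at 43.9 ± 6.61, Dppa3 (Stella), a maternal and germline factor, at 42.9 ± 7.97, Fbxo15, an F-box protein gene used as a reporter of pluripotency, at 35.9 ± 5.05, and Tfcp2l1, a grainyhead-like transcription factor, at 33.7 ± 9.20. From Esrrb down to Tfcp2l1 each level differed from the next by less than the larger of their SDs. Tbx3, a T-box factor, was at 18.9 ± 6.26 and Nr0b1 (Dax1), an orphan nuclear receptor without a DNA-binding domain of the usual kind, at 17.5 ± 0.864. Prdm14, a PR-domain factor known to repress FGF receptor and DNA methyltransferase genes, was at 11.2 ± 2.60, and Nr5a2 (Lrh1), an orphan nuclear receptor, at 8.89 ± 0.544 CPM per kb. At 4h Nr0b1 had moved from rank 8 to rank 5 among the 10, at 30.1 ± 5.30 CPM per kb. Fbxo15 was almost level with it at 30.0 ± 4.69 CPM per kb, so that rank is not firm. Prdm14 was last at 5.42 CPM per kb.

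**Figure D1:**
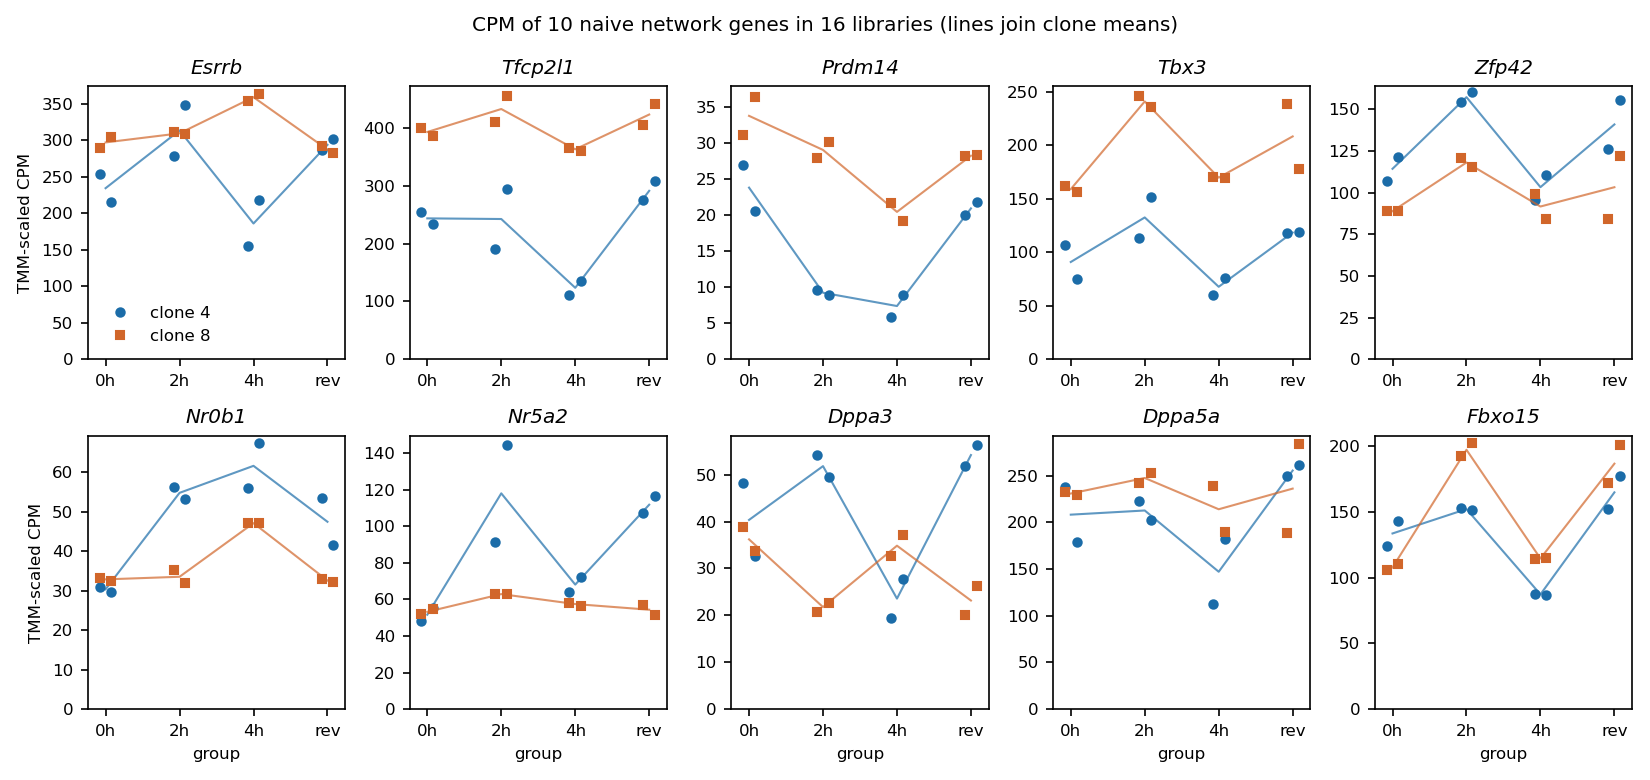
TMM-scaled CPM of each member (vertical axes, linear, from 0) in the 16 libraries by group; circles are clone 4, squares clone 8, and lines join the means of a clone's 2 libraries. In both clones Prdm14 was lower at 4h than at 0h, Nr0b1 was higher at 4h than at 0h, and Fbxo15 was higher at 2h and rev than at 4h.

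The first comparison was of 2h with 0h. After 2 h of induction, 5 of the 10 members rose and 1 fell: Fbxo15, Tbx3, Zfp42, Nr5a2 and Nr0b1 rose by 1.34-fold to 1.62-fold and Prdm14 fell to 0.630 of its 0h level. Calls are at an adjusted p under 0.05 from edgeR's quasi-likelihood test with clone as a covariate, adjusted over all 12742 tested genes, of which 17.0% were called in this comparison. The median log2 change was 0.33 over the members and 0.00 over all tested genes.

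Prdm14 measured 27.0 and 20.6 CPM in the clone 4 libraries at 0h and 9.60 and 8.85 CPM at 2h, and 31.1 and 36.4 CPM in clone 8 at 0h and 28.0 and 30.1 CPM at 2h. Both clones were lower at 2h, clone 4 far more than clone 8. The log2 change was -0.67 (SE 0.202, adjusted p = 0.0282, edgeR). Without any 1 of the clone 4 libraries of 0h and 2h the call was lost, with adjusted p from 0.0556 to 0.102 (edgeR). Scaling by library totals ended the calls of Prdm14, Tbx3, Zfp42, Nr0b1 and Fbxo15 at 2h, and leaving out the clone covariate ended all but that of Fbxo15, with directions kept.

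Tbx3 was 107 and 75.0 CPM in clone 4 at 0h and 113 and 152 CPM at 2h, and 162 and 156 CPM in clone 8 at 0h and 246 and 236 CPM at 2h. Within each clone the 2h libraries were all above the 0h libraries, although the 2h values of clone 4 lay below the 0h values of clone 8. The log2 change was 0.57 (SE 0.132, adjusted p = 0.00574, edgeR). Zfp42 rose by 0.43 (SE 0.105, adjusted p = 0.00793, edgeR), from 107 and 122 CPM to 154 and 160.2 CPM in clone 4 and from 88.7 and 89.1 CPM to 121 and 116 CPM in clone 8. For both genes the change was alike in size in the clones, at 0.54 in clone 4 and 0.60 in clone 8 for Tbx3 and 0.45 and 0.41 for Zfp42.

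Fbxo15 was 124 and 143 CPM in clone 4 and 106 and 110.1 CPM in clone 8 at 0h, against 153 and 152 CPM and 192 and 202 CPM at 2h. All 4 libraries at 2h were above all 4 at 0h, with a log2 change of 0.52 (SE 0.117, adjusted p = 0.00511, edgeR). The orphan receptor Nr5a2 went from 48.1 and 55.2 CPM to 91.4 and 145 CPM in clone 4, and from 51.9 and 54.6 CPM to 62.9 and 63.0 CPM in clone 8. Its log2 change was 0.69 (SE 0.177, adjusted p = 0.0113, edgeR), and 0.06 was the adjusted p without library 1 of clone 4 at 0h. Nr0b1 went from 31.0 and 29.7 CPM to 56.3 and 53.2 CPM in clone 4 and from 33.2 and 32.5 CPM to 35.1 and 31.9 CPM in clone 8, where the libraries overlap. Its log2 change was 0.42 (SE 0.131, adjusted p = 0.0333, edgeR), with 0.0529 under a replicate block and 0.0861 to 0.137 without any 1 of the clone 4 libraries of 0h and 2h; without the most abundant features in the library totals it was 0.0703.

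Esrrb, Tfcp2l1, Dppa3 and Dppa5a were not called at 2h. Esrrb differed by 0.25 on the log2 scale (SE 0.158, adjusted p = 0.302, edgeR), Tfcp2l1 by 0.06 (adjusted p = 0.828), Dppa3 by -0.16 (adjusted p = 0.724) and Dppa5a by 0.07 (adjusted p = 0.810). The Dppa3 value averages clones of opposite sign, 0.37 in clone 4 and -0.74 in clone 8, as given below.

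The second comparison was of 4h with 0h, with 12.9% of all tested genes called. At 4h Prdm14 and Tfcp2l1 were lower than at 0h, 2.17-fold and 1.42-fold, Nr0b1 was 1.67-fold higher, and the other 7 members were not called. The median log2 change of the members was -0.20.

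Prdm14 was at 5.87 and 8.89 CPM in clone 4 and 21.7 and 19.1 CPM in clone 8 at 4h. Within each clone both 4h libraries were below both 0h libraries, and across clones the groups overlapped by a single pair of values. The log2 change was -1.12 (SE 0.215, adjusted p = 0.00198, edgeR), and the call was kept in 16 of 16 fits that each left out 1 library. Nr0b1 was at 55.9 and 67.3 CPM in clone 4 and 47.1 and 47.0 CPM in clone 8, all above the highest 0h value of 33.2 CPM. Its log2 change was 0.74 (SE 0.132, adjusted p = 0.00103, edgeR), also called in 16 of 16 such fits.

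Tfcp2l1, at 254 and 233 CPM in clone 4 and 399.7 and 386 CPM in clone 8 at 0h, was at 112 and 135 CPM and at 365 and 361 CPM at 4h. Each clone was lower at 4h, with no overlap within a clone. The log2 change was -0.50 (SE 0.162, adjusted p = 0.0460, edgeR), and -0.51 with 0.0589 as its adjusted p under a replicate block. The call was lost in 8 of 16 fits that left out 1 library (any 0h library, either clone 4 library of 4h, library 2 of clone 8 at 2h, or library 1 of clone 4 at rev), with adjusted p from 0.0522 to 0.172 (edgeR). Of the 3 calls at 4h, library totals kept that of Prdm14 and the fit without the clone covariate that of Nr0b1.

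Of the members not called at 4h, Esrrb had a log2 change of 0.01 (SE 0.158, adjusted p = 0.984, edgeR). It measured 254 and 215 CPM at 0h and 154 and 217 CPM at 4h in clone 4, and 289.8 and 304 CPM at 0h and 354 and 364 CPM at 4h in clone 8, where it was higher in both libraries. The log2 changes of the rest were -0.14 for Tbx3 (adjusted p = 0.544), -0.05 for Zfp42 (0.821), 0.23 for Nr5a2 (0.442), -0.33 for Dppa3 (0.463), -0.29 for Dppa5a (0.219) and -0.27 for Fbxo15 (0.144), all by edgeR. None of these p-values shows that a level was the same.

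Set directly against 2h, 4 members fell at 4h and none rose, with 12.1% of all tested genes called. Fbxo15 fell by 0.79 on the log2 scale (SE 0.118, adjusted p = 0.000489, edgeR), to 87.7 and 86.9 CPM in clone 4 and 114 and 115 CPM in clone 8. Tbx3 fell by 0.72 (SE 0.132, adjusted p = 0.00226), to 59.9 and 75.7 CPM and to 171 and 169 CPM. Zfp42 fell by 0.48 (SE 0.105, adjusted p = 0.00676) and Tfcp2l1 by 0.57 (SE 0.161, adjusted p = 0.0279). For all 4 of these genes every 4h library lay below both 2h libraries of its clone. For Tfcp2l1 the adjusted p was 0.0622 to 0.106 without library 2 of clone 4 or library 2 of clone 8 at 2h, or either clone 4 library of 4h. The 4h libraries enter this comparison and the previous one, so the changes are not independent of each other.

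The comparison of rev with 4h asked what 2 h of MEK inhibitor did after 4 h of induction. Fbxo15, Prdm14, Tfcp2l1 and Tbx3 rose, by 1.44-fold to 1.92-fold, and Nr0b1 fell, 1.36-fold; the other 5 members were not called, and 9.61% of all tested genes were. The members' median log2 change was 0.41. Dppa5a was at 0.47 (adjusted p = 0.0550, edgeR) and Zfp42 at 0.32 (adjusted p = 0.0631, edgeR). DESeq2 called both (adjusted p = 0.0430 and 0.0484), as did edgeR without library 1 of clone 8 at 4h or at rev (0.00856 to 0.0223). Esrrb was at 0.14 (adjusted p = 0.621), Nr5a2 at 0.35 (0.234) and Dppa3 at 0.31 (0.526), all by edgeR. Since both comparisons use the 4h libraries, the values at rev are set below beside those at 0h, with that shared group in mind.

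Prdm14 reached 20.0 and 21.8 CPM in clone 4 and 28.2 and 28.3 CPM in clone 8 at rev, above the 4h libraries of the same clone in every case. The log2 change was 0.94 (SE 0.217, adjusted p = 0.00896, edgeR), called in 16 of 16 fits that left out 1 library. Tfcp2l1 was at 275 and 308 CPM in clone 4 and 405 and 441 CPM in clone 8, above both the 4h and the 0h libraries of the same clone. Its log2 change from 4h was 0.69 (SE 0.162, adjusted p = 0.00967, edgeR), and the adjusted p was 0.0503 without library 2 of clone 4 at 4h.

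Fbxo15 was at 152 and 178 CPM in clone 4 and 172 and 201 CPM in clone 8, with no overlap with the 4h libraries, and its log2 change was 0.81 (SE 0.118, adjusted p = 0.000232, edgeR). Tbx3 was at 118 and 119 CPM and at 239 and 178 CPM, above 4h within each clone, with a log2 change of 0.53 (SE 0.133, adjusted p = 0.0159, edgeR). That call was lost without library 1 or 2 of clone 4 at 4h or library 2 of clone 4 at rev, with adjusted p from 0.0520 to 0.0718. Nr0b1 was at 53.4 and 41.4 CPM in clone 4 and 33.0 and 32.1 CPM in clone 8. Its log2 change was -0.44 (SE 0.131, adjusted p = 0.0374, edgeR), with 0.0637 under a replicate block. Leaving out library 2 of clone 4 at 4h or at rev, or any clone 8 library of 4h or rev, ended the Nr0b1 call, with adjusted p from 0.0525 to 0.129. Library totals in place of TMM scaling ended all 5 calls at rev with no change of direction; under that scaling the median of all genes was itself shifted by -0.20. Without the clone covariate the call of Fbxo15 was the 1 that was kept.

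Against 0h, the rev libraries had 2 members higher and none lower, with 10.5% of all tested genes called. Fbxo15 was higher by 0.54 on the log2 scale (SE 0.117, adjusted p = 0.00680, edgeR), with all 4 rev libraries above all 4 at 0h. The Fbxo15 call was lost under library totals (log2 change 0.28, adjusted p = 0.537) and with clone 4 alone (0.30, adjusted p = 0.0611). Nr5a2 was higher by 0.58 (SE 0.181, adjusted p = 0.0453, edgeR), at 107 and 116 CPM in clone 4 and 57.2 and 51.6 CPM in clone 8, where the rev and 0h libraries overlap. The Nr5a2 call was lost under a replicate block (adjusted p = 0.0555), with totals outside the most abundant features (0.0571) and, with adjusted p from 0.0534 to 0.179, without any 1 of the clone 4 libraries of 0h and rev, library 1 of clone 4 at 2h or library 2 of clone 4 at 4h. Prdm14 (log2 change -0.17) and Nr0b1 (0.30), both called at 4h, were not called at rev against 0h.

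Against 2h, the rev libraries had 0 of 10 members called by edgeR and 0 by DESeq2, with 1.78% of all tested genes called. At an unadjusted p under 0.05 there was 1, Prdm14, with a log2 change of 0.49 (adjusted p = 0.249, edgeR). In clone 4 alone Prdm14 was higher at rev than at 2h by 1.19 (SE 0.181, adjusted p = 0.000164, edgeR), and in clone 8 alone it was at -0.04 (adjusted p = 0.907); the difference between clones was not tested. The 2h and rev groups share the time since the latest compound was added and the sign of the third principal component, and the part of either in these values was not tested.

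The clones differed in the level of most members. Over the 4 groups together, 4 members were higher in clone 8 and 4 lower, while 34.9% of all tested genes were called. Tbx3 was higher by 0.95 on the log2 scale (SE 0.0943, adjusted p = 1.85e-07, edgeR), Prdm14 by 0.97 (SE 0.150, adjusted p = 4.24e-05), Tfcp2l1 by 0.90 (SE 0.115, adjusted p = 4.42e-06) and Esrrb by 0.31 (SE 0.113, adjusted p = 0.0400). Nr5a2 was lower by -0.55 (SE 0.127, adjusted p = 0.00195), Dppa3 by -0.53 (SE 0.193, adjusted p = 0.0378), Nr0b1 by -0.39 (SE 0.0930, adjusted p = 0.00249) and Zfp42 by -0.35 (SE 0.0745, adjusted p = 0.00116). For Tbx3 every clone 8 library was above every clone 4 library, from 156 CPM up against 152 CPM at most, and for Tfcp2l1 likewise, from 361 CPM up against 308 CPM at most. For Esrrb the clone 8 mean was above that of clone 4 at 0h (297 against 234 CPM) and 4h (359 against 186 CPM) but not at 2h (309 against 313 CPM) or rev (287 against 294 CPM). For Dppa3 clone 8 was the lower at 0h, 2h and rev and the higher at 4h (34.9 against 23.6 CPM). The Esrrb call was lost under a replicate block (adjusted p = 0.0559) and in 8 of 16 fits that left out 1 library (library 2 of clone 4 or either clone 8 library of 0h, library 1 of clone 4 at 2h, or any 4h library; up to 0.0874). The Dppa3 call was lost under the block (0.0616), with DESeq2 (0.0808) and in 9 of 16 (library 1 of clone 4 at 0h or any library of 2h or rev; up to 0.0991).

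In uninduced cells alone, 3 members differed between clones, with 11.7% of all tested genes called. Tbx3 was higher in clone 8 by 0.82 (SE 0.142, adjusted p = 0.000110, edgeR), Tfcp2l1 by 0.69 (SE 0.132, adjusted p = 0.000345) and Prdm14 by 0.51 (SE 0.142, adjusted p = 0.0139). The Prdm14 difference was not called without library 2 of clone 4 (adjusted p = 0.395) or library 2 of clone 8 (0.174) at 0h, nor with DESeq2 (0.0693). The other 7 members were not called at 0h, among them Nr5a2 (log2 difference 0.04) and Nr0b1 (0.12), which were called lower in clone 8 over all groups.

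The response also differed between clones. At 4h against 0h, clone 4 fitted alone had 6 members lower and 1 higher, where 19.0% of all genes were called, and clone 8 had 1 lower and 1 higher, where 6.28% were. Over the 10 members the median of these changes was -0.48 for clone 4 and 0.07 for clone 8. The difference itself was tested as an interaction, the clone 8 change minus the clone 4 change. It was called for 5 members and positive in each, with 5.72% of all tested genes called.

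**Figure D2:**
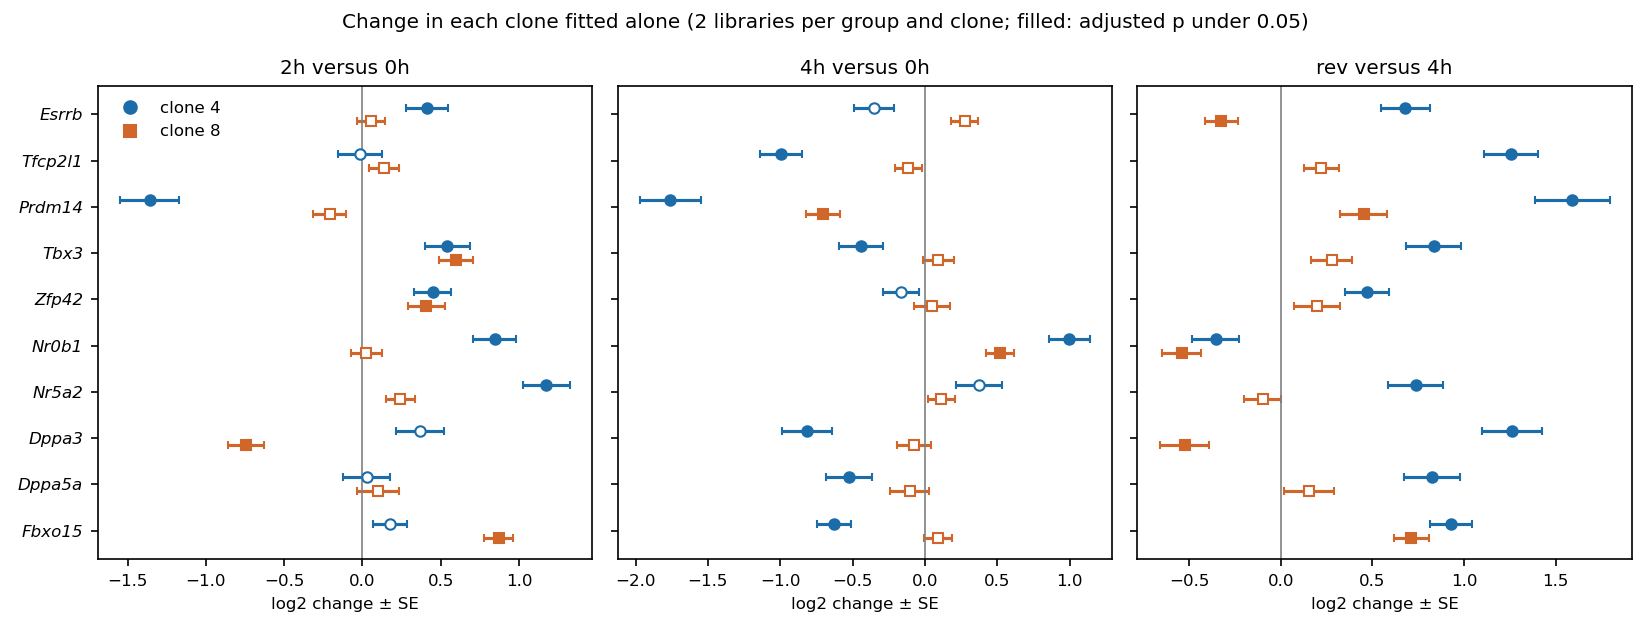
Log2 change ± SE (horizontal axes) of each member in each clone fitted alone, for 2h versus 0h, 4h versus 0h and rev versus 4h; circles are clone 4, squares clone 8, and filled symbols have an adjusted p under 0.05. At rev versus 4h, 9 members rose in clone 4 with Nr0b1 falling, while Esrrb and Dppa3 fell in clone 8.

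Prdm14 fell in both clones at 4h, by 1.76 on the log2 scale in clone 4 (SE 0.210, adjusted p = 5.63e-07, edgeR) and by 0.70 in clone 8 (SE 0.117, adjusted p = 0.000845), and the difference of 1.05 was called (SE 0.242, adjusted p = 0.00538). Tfcp2l1 fell by 1.00 in clone 4 (SE 0.146, adjusted p = 1.31e-05) and was at -0.11 in clone 8 (adjusted p = 0.534), with a difference of 0.87 (SE 0.189, adjusted p = 0.00270). Fbxo15 fell by 0.63 in clone 4 (SE 0.117, adjusted p = 0.000280) and was at 0.09 in clone 8 (adjusted p = 0.650), with a difference of 0.71 (SE 0.153, adjusted p = 0.00273). Esrrb was at -0.35 in clone 4 and 0.27 in clone 8, neither called, with a difference of 0.62 (SE 0.175, adjusted p = 0.0301). Dppa3 fell by 0.82 in clone 4 (adjusted p = 0.00124) and was at -0.07 in clone 8, with a difference of 0.74 (SE 0.222, adjusted p = 0.0420) that missed the threshold under a replicate block (adjusted p = 0.0637) and with DESeq2 (0.111). Dppa5a fell by 0.53 and Tbx3 by 0.44 in clone 4 alone, and their differences between clones were not called.

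Nr0b1 rose in both clones at 4h, by 1.00 in clone 4 (SE 0.141, adjusted p = 7.89e-06) and by 0.52 in clone 8 (SE 0.0992, adjusted p = 0.00274, edgeR), with a difference of -0.49 that was not called (adjusted p = 0.111). Library 1 of clone 4 at 4h bore on these interactions: without it 1 member was called in place of 5, Prdm14 was at 0.70 (adjusted p = 0.308) and Tfcp2l1 at 0.73 (adjusted p = 0.0686). The Esrrb difference was also lost without library 1 of clone 4 or either clone 8 library at 0h, or either clone 8 library at 4h (adjusted p up to 0.155). The Dppa3 difference was lost without those same libraries, library 2 of clone 8 at 2h or library 1 of clone 4 at rev (up to 0.325). Without library 1 of clone 4 at 4h, the Esrrb difference had an adjusted p of 0.398 and that of Dppa3 0.518. Under library totals all 5 interactions lost their calls with larger differences, 0.93 for Esrrb, 1.19 for Tfcp2l1, 1.34 for Prdm14, 1.03 for Dppa3 and 1.03 for Fbxo15, while the median of all genes was 0.35.

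At 2h against 0h the interaction was called for 5 members, with 7.94% of all tested genes called. Clone 4 alone had 5 members higher and 1 lower (20.7% of all genes called), and clone 8 alone 3 higher and 1 lower (17.8%). Prdm14 fell by 1.36 in clone 4 (SE 0.188, adjusted p = 1.17e-05, edgeR) and was at -0.21 in clone 8 (adjusted p = 0.177), a difference of 1.14 (SE 0.214, adjusted p = 0.000671). Nr5a2 rose by 1.17 in clone 4 (SE 0.151, adjusted p = 4.28e-06) and was at 0.24 in clone 8 (adjusted p = 0.0736), a difference of -0.94 (SE 0.191, adjusted p = 0.00161).

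Nr0b1 rose by 0.84 in clone 4 at 2h (SE 0.139, adjusted p = 0.000100, edgeR) and was at 0.02 in clone 8 (adjusted p = 0.894), a difference of -0.83 (SE 0.173, adjusted p = 0.00227). Fbxo15 was at 0.18 in clone 4 (adjusted p = 0.281) and rose by 0.87 in clone 8 (SE 0.0939, adjusted p = 1.81e-06), a difference of 0.69 (SE 0.147, adjusted p = 0.00282). Dppa3 was 48.1 and 32.6 CPM at 0h and 54.2 and 49.5 CPM at 2h in clone 4, and 38.8 and 33.6 CPM at 0h and 20.8 and 22.7 CPM at 2h in clone 8. Clone 4 was higher and clone 8 lower at 2h, by 0.37 (adjusted p = 0.0869) and -0.74 (SE 0.117, adjusted p = 0.000163), a difference of -1.12 (SE 0.204, adjusted p = 0.000484, edgeR). Under library totals, where the median of all genes was 0.56, the 3 negative differences were smaller and not called, -0.25 for Nr0b1 (adjusted p = 0.660), -0.37 for Nr5a2 (0.493) and -0.53 for Dppa3 (0.345).

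At rev against 4h, clone 4 alone had 9 members higher and 1 lower (24.6% of all genes called), and clone 8 alone had 2 higher and 3 lower (6.42%). The interaction was called for 6 members and negative in each, with 13.2% of all tested genes called. Dppa3 was at 19.5 and 27.7 CPM at 4h and 52.0 and 56.5 CPM at rev in clone 4, and at 32.7 and 37.1 CPM at 4h and 20.0 and 26.4 CPM at rev in clone 8. It rose by 1.26 in clone 4 (SE 0.163, adjusted p = 2.07e-06, edgeR) and fell by 0.53 in clone 8 (SE 0.134, adjusted p = 0.0200), a difference of -1.78 (SE 0.226, adjusted p = 1.39e-06).

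Esrrb went from 154 and 217 CPM to 286 and 301 CPM in clone 4 and from 354 and 364 CPM to 292 and 283 CPM in clone 8, so that the clones, apart at 4h, lay within 283 to 301 CPM at rev. Its change was 0.68 in clone 4 (SE 0.136, adjusted p = 0.000489) and -0.32 in clone 8 (SE 0.0916, adjusted p = 0.0355), a difference of -0.99 (SE 0.175, adjusted p = 0.000168, edgeR). Tfcp2l1 rose by 1.26 in clone 4 (adjusted p = 3.49e-07) and was at 0.22 in clone 8 (adjusted p = 0.204), a difference of -1.02 (SE 0.189, adjusted p = 0.000290). Prdm14 rose in both, by 1.59 and 0.45, with a difference of -1.13 (SE 0.243, adjusted p = 0.00161). Nr5a2 rose by 0.73 in clone 4 and was at -0.10 in clone 8 (adjusted p = 0.659), a difference of -0.82 (SE 0.197, adjusted p = 0.00438). Fbxo15 rose in both clones, by 0.93 in clone 4 and 0.71 in clone 8, and Nr0b1 fell in both, by 0.35 and 0.54, with differences that were not called.

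Dppa5a rose by 0.82 in clone 4 at rev (adjusted p = 0.000258, edgeR) and was at 0.15 in clone 8, with a difference of -0.66 (SE 0.227, adjusted p = 0.0483). That difference was lost under a replicate block (adjusted p = 0.0691), with DESeq2 (0.330), with totals outside the most abundant features (0.0661), and in 9 of 16 fits that left out 1 library (either clone 8 library of 0h or 2h, either clone 4 library or library 1 of clone 8 at rev, or library 1 of either clone at 4h; up to 0.432). Without library 1 of clone 4 at 4h, the Prdm14 difference had an adjusted p of 0.114 and that of Nr5a2 0.0519, and 3 members were called in place of 6.

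Other measures also differed between the clones. At 4h against 0h, 8 of 10 genes of a list of ERK feedback and early target genes had a lower change in clone 8 than in clone 4 by the interaction test, with a median difference of -2.51 on the log2 scale against 0.03 over all tested genes. Of all tested genes 5.72% were called by that test, and the list was chosen with earlier results of these data known. The 2-cell-like markers in clone 8 summed to 6.47 to 7.47 CPM at 0h, 27.5 to 29.5 CPM at 2h, 11.7 to 13.8 CPM at 4h and 23.0 to 25.6 CPM at rev. The 8 most abundant features held 46.7% to 52.1% of clone 8 libraries at 2h and 63.6% to 78.9% at rev, against 59.6% to 64.9% in clone 4 at those times. The part of any of these in the clone differences was not tested.

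**Figure D3:**
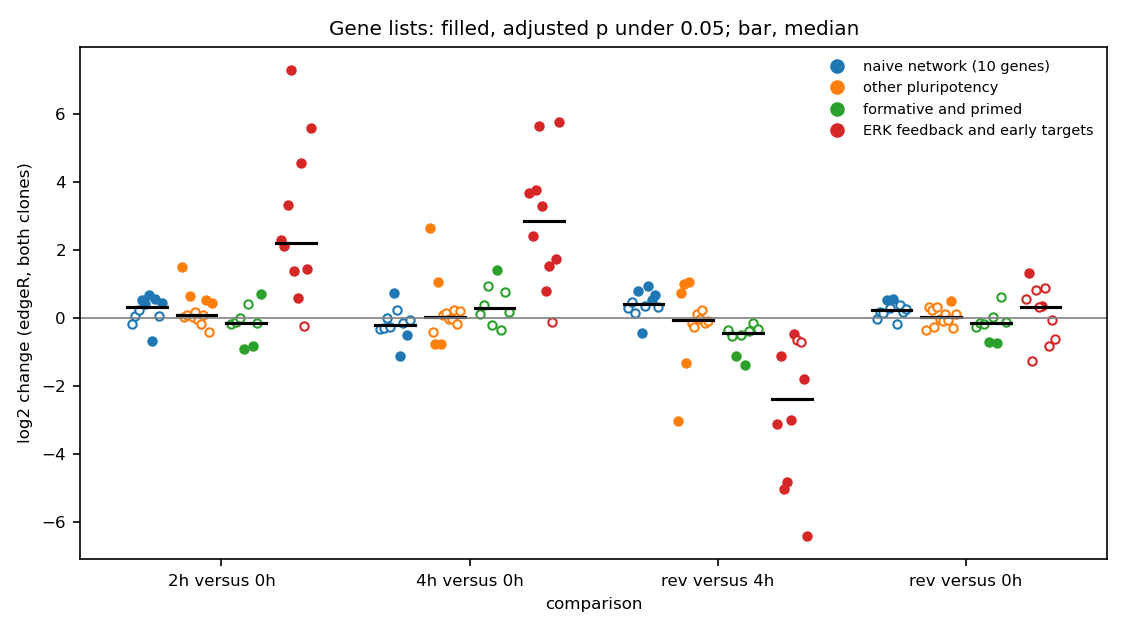
Log2 change over both clones (vertical axis, edgeR) of the 10 members and of 3 further gene lists in 4 comparisons; each point is a gene, filled at an adjusted p under 0.05, and bars are list medians. The members' medians run from -0.20 to 0.41, against 2.86 at 4h versus 0h and -2.39 at rev versus 4h for the ERK list.

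The ERK list and the lists below were chosen with earlier results of these data known. Their counts are therefore no independent check of the induction. Of all tested genes, 17.0% were called at 2h and 12.9% at 4h against 0h, and 9.61% at rev against 4h. The ERK list holds feedback inhibitors such as the Sprouty and Dusp genes and early targets. At 2h, 9 of 10 were higher than at 0h, with a median log2 change of 2.21, led by Egr1 at 7.30 (adjusted p = 3.45e-10, edgeR). At 4h, 9 of 10 were higher, with a median of 2.86, led by Spry4 at 5.78 (adjusted p = 5.48e-09). At rev against 4h, 8 of 10 were lower and none higher, with a median of -2.39, Spry4 at -6.41 (adjusted p = 2.35e-09). Ier3 was called in none of these 3 comparisons.

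Of 12 other pluripotency genes, 4 were higher and none lower at 2h, with a median log2 change of 0.09. At 4h 2 were higher and 2 lower, with a median of 0.04: the largest rise was that of Gbx2, a homeobox factor, at 2.66 (adjusted p = 0.000123, edgeR) and the largest fall that of Nanog, a homeobox factor of the naive network, at -0.75 (adjusted p = 0.00490). At rev against 4h 3 were higher and 2 lower, with a median of -0.05. Nanog was at 1.08 (adjusted p = 0.000308) and Gbx2 at -3.03 (adjusted p = 6.38e-05), each in the direction opposite to its change at 4h, with the 4h libraries shared by both comparisons.

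Formative and primed genes, which come up as cells leave the naive state, numbered 10, of which Fgf5 and Fgf15 did not pass the filter. At 2h 1 of 8 was higher and 2 were lower, with the largest rise for Zic2 at 0.71 (adjusted p = 0.00195, edgeR) and the largest fall for Otx2 at -0.90 (adjusted p = 0.00402). At 4h 1 of 8 was higher and none lower, Pou3f1, a POU factor, at 1.43 (adjusted p = 0.0181), with a list median of 0.29. At rev against 4h 2 of 8 were lower and none higher, with a median of -0.43, and Pou3f1 was at -1.38 (adjusted p = 0.0268).

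Among the members, after each clone's mean was subtracted, 37 of the 45 pairs had a positive correlation of log2 CPM over the 16 libraries, with a median r of 0.44. The highest was between Esrrb and Dppa3 (0.79), followed by Zfp42 and Fbxo15 (0.78), and the lowest between Prdm14 and Nr0b1 (-0.78) and between Tfcp2l1 and Nr0b1 (-0.50). The points share libraries, scaling and treatment groups, so these are descriptions. By the same measure over 7836 genes, Esrrb was most like Cobl (r = 0.93), Zcchc2 (0.93) and Zmynd19 (0.92), and Tfcp2l1 most like Foxo3 (0.95), Nfatc2ip (0.94) and Cln8 (0.94). Prdm14 was most like Plpp3 (0.92), Fgfr1 (0.89) and Dctn2 (0.89), and Tbx3 most like Slmap (0.92), March5 (0.91) and Magi3 (0.90).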

How the data were processed

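RNA depleted of ribosomal RNA was sequenced, per the labels' protocols. The authors deposited whole-number counts for 52636 Ensembl gene IDs in 16 libraries, with no normalization, and per the submitters' processing notes bcl2fastq 2.19.1, STAR 2.5.3a and the build mm10 were used; the counting program, annotation and strand setting are not given in the sources used here. Symbols and coordinates (1-based, GRCm38) came from GENCODE M21 by gene ID, with 52403 IDs matched and 233 not; promoters came from RefSeq GRCm38.p6.

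Genes were kept with filterByExpr (minimum count 10, minimum total 15), leaving 12742, and tested with edgeR 4.0.16 in R 4.3.3 (TMM, quasi-likelihood, group plus clone over 16 libraries, Benjamini-Hochberg over all tested genes, called under 0.05). Interactions and clones at 0h came from a model with 1 mean for each of the 8 group-by-clone cells; single-clone fits were filtered anew. The SE of a log2 change is its size over the root of the F statistic. CPM are TMM-scaled (prior count 2 on the log2 scale). SDs of CPM include the difference between clones. Scripts were tested on simulated data. Python 3.11.15 drew the figures.

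Members and lists were chosen with earlier results of these data known. All 10 members are named. Genes of like pattern are the 3 with the highest clone-centred correlation among genes with a mean of at least 50 counts, without predicted-gene names. From each further list the largest called change in a direction is named. Alternatives were DESeq2 1.42.0, library totals, the same without features above 1% (chosen after seeing the data), no filter, no clone covariate, 1 clone alone, an adjusted p under 0.01, a replicate block and leaving out each library. Library numbers are shared between groups, but deviations of same-numbered libraries correlated at -0.133 to 0.119 over 12 pairs, with 1 above 0.1, so the numbers were not taken as pairs. Same-clone pairs within a group varied beyond counting error (chi-square over its degrees of freedom, 1.30 to 4.16), and none was merged.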

Additional observations from a re-analysis of the deposited data

Results flagged for a closer look

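In uninduced cells, Dppa5a was lowest in library 2 of clone 4, at 179 CPM against 229 to 238 CPM in the other 3 libraries, a gap of 0.855 of the group's range. This was 1 of 40 sets of a gene and a group examined. The cutoff used passes about 1 in 20 sets of 4 values drawn from 1 normal population. Each set here holds 2 libraries of each of 2 clones, so that rate need not apply to it.

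Changes that differed between clones by the interaction test (clone 8 change minus clone 4 change, log2) numbered 16. At 2h versus 0h they were 1.14 for Prdm14, 0.69 for Fbxo15, -0.83 for Nr0b1, -0.94 for Nr5a2 and -1.12 for Dppa3. At 4h versus 0h they were 1.05 for Prdm14, 0.87 for Tfcp2l1, 0.74 for Dppa3, 0.71 for Fbxo15 and 0.62 for Esrrb, each smaller in size in clone 8 or of the opposite sign. At rev versus 4h they were -1.78 for Dppa3, -1.13 for Prdm14, -1.02 for Tfcp2l1, -0.99 for Esrrb, -0.82 for Nr5a2 and -0.66 for Dppa5a. Prdm14 and Dppa3 stood in all 3 comparisons, which share libraries with one another.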

How the results depend on the processing

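Scaled by library totals instead of TMM, the data gave 1 in place of 6 at 2h versus 0h, 1 in place of 3 at 4h versus 0h, 2 in place of 4 at 4h versus 2h, 0 in place of 5 at rev versus 4h, 0 in place of 2 at rev versus 0h, 4 in place of 8 between clones and 0 in place of 3 between clones at 0h. For the interactions it gave 2 in place of 5 at 2h, where the 3 lost differences were smaller, and 0 in place of 5 at 4h, where all 5 were larger. Calls over all tested genes fell as well, to 446 in place of 2162 at 2h versus 0h. They numbered 513 in place of 1645 at 4h versus 0h and 385 in place of 1547 at 4h versus 2h. Some counts of members, here and below, have no number over all tested genes beside them. For those, a change particular to the members cannot be told from a general one. Under that scaling the median log2 change of all genes was 0.11 at 2h versus 0h, -0.14 at 4h versus 2h, -0.20 at rev versus 4h, -0.24 at rev versus 0h and -0.35 at rev versus 2h, and 0.56, 0.35 and -0.67 in the interactions at 2h, 4h and rev. It put the share of higher among called genes at 78.0% in place of 55.9% at 2h versus 0h, 16% in place of 46.9% at rev versus 4h, 23.8% in place of 52.7% at rev versus 0h, 8.28% in place of 43.2% at rev versus 2h and 65.1% in place of 49.0% between clones. In the interactions it was 94.5% in place of 36.9% at 2h and 6.22% in place of 47.8% at rev. Totals without the features above 1%, chosen after seeing the data, gave 37.6% at 2h versus 0h, 41.1% in place of 56.9% at 4h versus 0h, 35.8% at rev versus 0h and 49.0% in the interaction at 2h, and 1 member at rev versus 0h.

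Without the clone covariate 1 member was called at each of 2h versus 0h, 4h versus 0h, 4h versus 2h, rev versus 4h and rev versus 0h. Over all tested genes 757 were called at 2h versus 0h, 546 at 4h versus 0h and 266 at 4h versus 2h. With clone 4 alone the counts of members were 7 at 4h versus 0h, 8 at 4h versus 2h, 10 at rev versus 4h and 1 at rev versus 2h. The shares of all genes called there were 19.0%, 27.1%, 24.6% and 3.31%. With no filter the counts of members were 7 at 4h versus 2h, where 2016 of 31994 genes were called, 8 at rev versus 4h and 1 at rev versus 2h. At an adjusted p under 0.01 they were 3 at 2h versus 0h, where 921 of all tested genes were called, 3 at rev versus 4h, 1 at rev versus 0h and 3 in the interaction at 4h. With the replicate block 1 member was called at rev versus 0h; it ended 8 calls, given with the results, and changed no other call.

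Leaving out 1 library gave 3 to 6 called members at 2h versus 0h, 2 to 6 at rev versus 4h and 1 to 3 at rev versus 0h. It gave 2 to 5 between clones at 0h, 1 to 6 in the interaction at 4h and 3 to 7 in that at rev. Calls over all tested genes moved too. At 2h versus 0h they ran from 1272 of 13047, without library 1 of clone 4 at 0h, upward. The highest was 2430 of 13012, without library 1 of clone 4 at 4h. Called changes of opposite sign appeared only with 1 clone alone: Dppa3 at 0.67 for 4h versus 2h, Esrrb at -0.32 and Dppa3 at -0.53 for rev versus 4h, all in clone 8, and Dppa3 at 0.45 for rev versus 0h in clone 4. A change of sign that neither fit called was not counted as one. The cause was not tested for any of these. DESeq2 ended 4 calls and added 2, those of Zfp42 and Dppa5a at rev versus 4h, and no direction reversed under it. Prdm14 counts ran from 35 to 429 a library.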
